A study of Mus musculus with 4 samples.

Results

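Matrix metalloproteinases (MMPs) and tissue inhibitors of metalloproteinases (TIMPs) were examined in RNA sequencing of whole mouse testes. The members were the rows of the deposited table named *Mmp2*, *Mmp9*, *Mmp11*, *Mmp14*, *Mmp15*, *Mmp23*, *Timp1*, *Timp2* and *Timp3*, which are 9 of its 55820 loci. All 9 passed the filter on low counts. The samples were testes of male C57BL/6J mice at postnatal day 10, with 2 control libraries and 2 libraries from Mps1sKO mice, whose *Mps1* gene was deleted by Stra8-cre in germ cells from the early spermatogonia onwards. The labels call the other mice control and give no alleles for them, and whether a library came from 1 animal is not stated, so p-values cover the spread between these libraries only. Stra8-cre limits the deletion to germ cells, whereas a whole testis also holds Sertoli, peritubular, Leydig, vascular and immune cells.

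MMPs are zinc-dependent proteases that cut collagens, laminins and other proteins of the extracellular matrix. They are made as inactive precursors, and TIMPs block the active enzymes by filling the catalytic site. In the testis, Sertoli, peritubular and interstitial cells make them, and the system acts at the basement membrane of the tubule and at the junctions between Sertoli cells. MMP14, MMP15 and MMP23 are held in the cell membrane, MMP2 and MMP9 are secreted gelatinases, and MMP11 is a secreted protease that is already active when it leaves the cell.

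A zinc-binding motif was found in all 6 MMP members, and its coding stretch is shown for each. The sequences were read from GENCODE M21 transcripts on GRCm38, 5′ to 3′ on the coding strand, 33 bases each. Capitals mark the codons of the 3 zinc-binding histidines and of the catalytic glutamate that follows the first of them.
*Mmp2* (chr8:92839279-92839311, plus strand, exon 8 of 13): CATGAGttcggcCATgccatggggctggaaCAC
*Mmp9* (chr2:164951133-164951165, plus strand, exon 8 of 13): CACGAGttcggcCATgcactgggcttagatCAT
*Mmp11* (chr10:75926931-75926963, minus strand, exon 5 of 9): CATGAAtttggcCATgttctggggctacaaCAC
*Mmp14* (chr14:54437627-54437659, plus strand, exon 5 of 10): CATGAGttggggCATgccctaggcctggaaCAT
*Mmp15* (chr8:95368585-95368617, plus strand, exon 5 of 10): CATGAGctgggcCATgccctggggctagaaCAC
*Mmp23* (chr4:155651528-155651560, minus strand, exon 5 of 8): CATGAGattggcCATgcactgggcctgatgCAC

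The 33 bases were between 69.7% and 87.9% identical in pairs, with *Mmp2* and *Mmp15* the closest. A furin-type cleavage motif (arginine, any residue, lysine or arginine, arginine) was found ahead of the zinc-binding motif in *Mmp11*, *Mmp14*, *Mmp15* and *Mmp23* and not in *Mmp2* or *Mmp9*. Furin is the protease that removes the propeptide of membrane-bound MMPs inside the cell, and the stretches are shown because *Furin* itself was measured here. Capitals mark the codons of the 3 required residues, and for *Mmp15*, which had 2 matches, the first is given.
*Mmp11* (chr10:75928327-75928338, minus strand, exon 2 of 9): CGAcagAAGCGC
*Mmp14* (chr14:54436202-54436213, plus strand, exon 3 of 10): CGGaggAAGCGC
*Mmp15* (chr8:95366358-95366369, plus strand, exon 3 of 10): CGTcgaCGGCGG
*Mmp23* (chr4:155652502-155652513, minus strand, exon 2 of 8): CGAagaCGCCGC

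The TIMPs are inhibitors and not proteases. Their mature protein starts with a cysteine, any residue and a second cysteine, the part that enters the catalytic site of the protease. Capitals mark the codons of both cysteines in the first 36 bases from that point.
*Timp1* (chrX:20871111-20871146, plus strand, exon 2 of 6): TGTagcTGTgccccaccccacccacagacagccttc
*Timp2* (chr11:118354977-118355012, minus strand, exon 1 of 5): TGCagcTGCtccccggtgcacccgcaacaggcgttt
*Timp3* (chr10:86300923-86300958, plus strand, exon 1 of 5): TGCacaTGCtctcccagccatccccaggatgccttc

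Library totals lay between 23311689 and 28607746 counts. The targeted gene *Ttk*, which encodes MPS1, had 27.9 and 32.6 CPM (counts scaled to the normalized library size) in control libraries and 13.0 and 12.2 CPM in Mps1sKO libraries, so each library matched its label. Germ cell markers were lower in Mps1sKO testes, with 12 of 12 below control and 10 at an unadjusted p below 0.05 from edgeR, at a median log2 difference of −0.46. All 11 tested Sertoli cell markers were above control, 3 of them at that p, at a median of 0.26. Of all tested genes, 5.37% were lower and 3.92% higher at that p. In RNA from whole testes, fewer cells of a type and less RNA per cell cannot be told apart. By staining, the study counted fewer DDX4-positive germ cells per tubule at this age.

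Levels were compared between genes as FPKM, which the authors scaled by gene length. In control testes *Timp2*, an inhibitor that also helps MMP14 to activate the MMP2 precursor, had the highest level, with 58.4 and 58.9 FPKM. *Mmp11* had 39.0 and 28.8 FPKM, *Mmp14* had 35.1 and 27.5, and *Mmp2* had 28.1 and 27.6, and the libraries of each overlapped those of the next in this order. *Timp3*, the TIMP that binds to the matrix, followed with 12.3 and 16.7 FPKM, then *Mmp23* with 13.9 and 8.79 and *Timp1* with 9.45 and 8.88, and each of these overlapped the next. *Mmp15* and *Mmp9* were far lower, with 1.28 and 0.874 FPKM and 1.13 and 0.759 FPKM.

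In Mps1sKO testes the order of the members was the same except that *Mmp14* stood above *Mmp11*. *Mmp14* had 36.9 and 45.7 FPKM there and *Mmp11* 37.5 and 41.0, so their ranges overlapped. *Mmp2* lay below both at 25.6 and 31.8 FPKM. *Timp2* was again the highest member, with 64.9 and 65.1 FPKM.

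**Figure D1:**
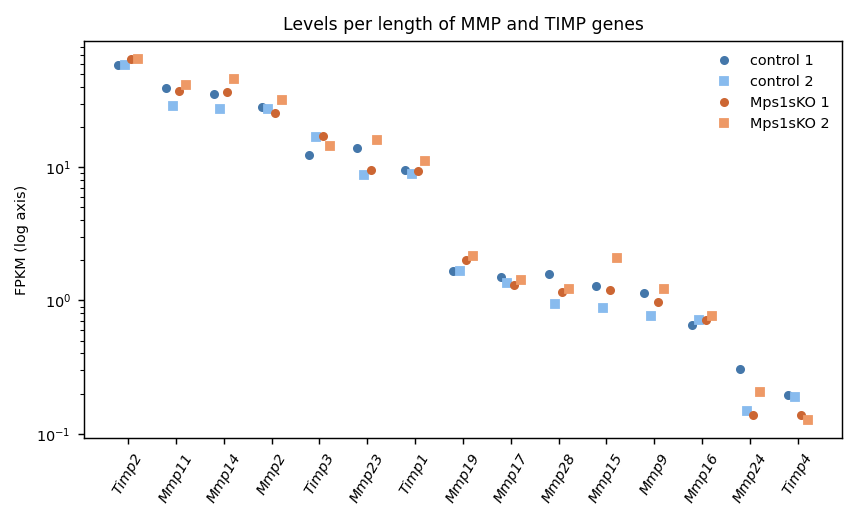
FPKM on a log axis for the 9 members and 6 other tested MMP and TIMP genes, ordered by their control mean, with 1 point for each library. *Timp2* lies highest at 58.4 to 65.1 FPKM, *Mmp11*, *Mmp14* and *Mmp2* lie between 25.6 and 45.7, and *Timp4* lies lowest at 0.126 to 0.194.

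The levels of the members in the 2 genotypes were then compared, to ask whether the matrix proteases and their inhibitors change when germ cells lack *Mps1*. All 9 members had a log2 fold change above 0 in Mps1sKO relative to control, from 0.04 for *Mmp2* to 0.61 for *Mmp15*, and the median was 0.17. Over all 20561 tested genes, 50.1% had a log2 fold change above 0 and the median was 0.00027. With the quasi-likelihood test of edgeR, 0 of the 9 had an adjusted p below 0.05, against 0.0292% of all tested genes. DESeq2 also called 0, against 0.24% of the 15436 loci to which it gave an adjusted p. At an unadjusted p below 0.05, edgeR called 1 member, *Mmp14*, against 9.3% of all tested genes (3.92% higher and 5.37% lower). DESeq2 called *Mmp14* and *Mmp15*, against 3.2% of 35262 loci. That set also holds the loci with low counts that the edgeR filter removed, so its share is not comparable with the 9.3%. For 2 members, *Mmp14* and *Timp2*, both Mps1sKO values lay above both control values, which is 22.2% of the members against 41.4% of all tested genes (20.3% higher and 21.1% lower).

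**Figure D2:**
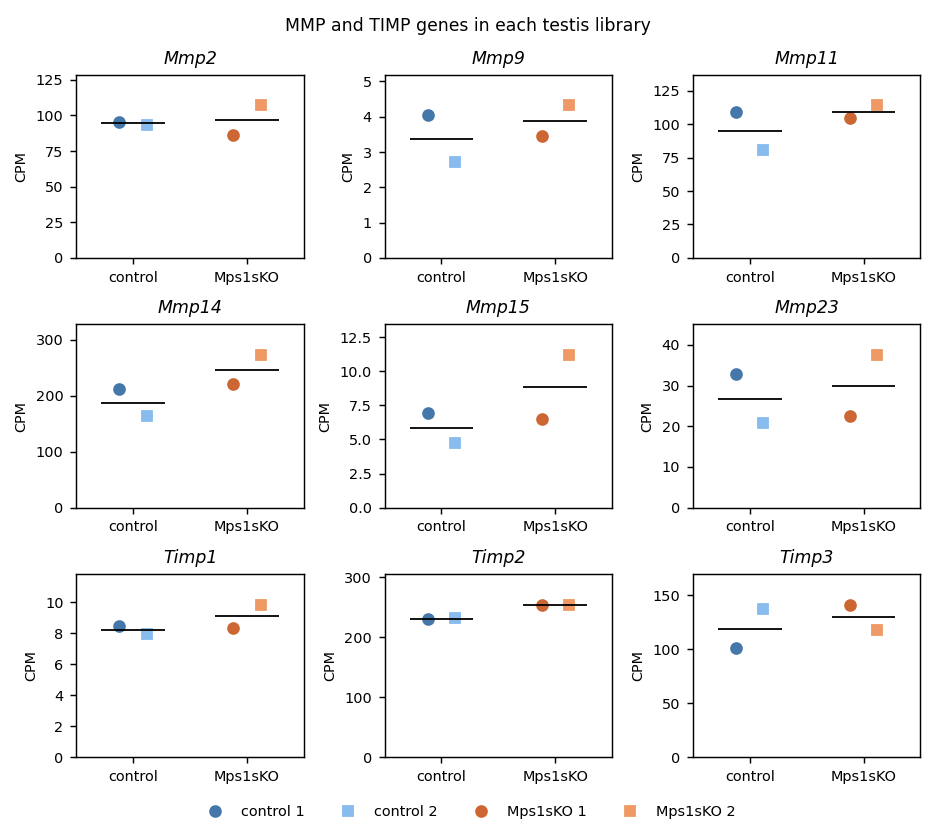
CPM of each member in the 4 libraries on linear axes from 0, with the mean of each genotype as a bar. The Mps1sKO values of *Mmp14* (221 and 273) and *Timp2* (254 and 254) lie above their control values, and the values of the other 7 members overlap between the genotypes.

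*Mmp14* (ENSMUSG00000000957, chr14:54431612-54445364, GRCm38) encodes the membrane protease that activates MMP2. It had 211 and 165 CPM in control libraries and 221 and 273 CPM in Mps1sKO libraries. Both Mps1sKO libraries were above both control libraries, but the lower of them exceeded the higher control library by less than the control libraries differed from each other. The log2 fold change was 0.39 (standard error 0.147, 95% interval 0.05 to 0.74), or 31.4% higher. The unadjusted p was 0.0288 and the adjusted p was 0.514 with edgeR, and 0.00695 and 0.395 with DESeq2. An enrichment table that the study made from the same libraries lists this gene under a signalling term, so that listing and this difference are not independent.

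The adjusted p of *Mmp14* was 0.0157 from edgeR without the filter on low counts, where 390 of 35262 loci passed. It was 0.0149 from edgeR with a crossed replicate block, which was chosen after seeing the data and called 550 genes of all. Among the other alternatives that kept all libraries, it lay from 0.395 with DESeq2 to 0.915 from edgeR with the replicate block. The log2 fold change was 0.58 without control replicate 1. It was 0.22 without control replicate 2 and 0.23 without Mps1sKO replicate 2, where the unadjusted p from edgeR was 0.172 and 0.117.

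*Mmp15*, a second membrane-bound MMP, had the largest fold change of the members. It had 6.94 and 4.75 CPM in control and 6.52 and 11.2 CPM in Mps1sKO libraries. The groups overlapped, and Mps1sKO replicate 2 alone was above both controls. The log2 fold change was 0.61 (standard error 0.287, 95% interval −0.06 to 1.27, edgeR adjusted p = 0.566), and it was 0.16 without Mps1sKO replicate 2 and 0.94 without Mps1sKO replicate 1.

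*Mmp23*, a membrane protease whose activation also releases it from the cell, had 32.8 and 20.7 CPM in control and 22.5 and 37.5 CPM in Mps1sKO libraries. The lower library of each genotype was close to that of the other, and so was the higher. The log2 fold change was 0.17 (standard error 0.271, 95% interval −0.46 to 0.80). Without Mps1sKO replicate 2 it was −0.25, and without control replicate 2 it was −0.13.

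Among the secreted proteases, *Mmp11* had 109 and 80.4 CPM in control and 105 and 114 CPM in Mps1sKO libraries. Its groups overlapped through control replicate 1, and the log2 fold change was 0.21 (95% interval −0.13 to 0.54). It was 0.44 without control replicate 1 and 0.00089 without control replicate 2. *Mmp11* shares 155 of its 2778 exon bases with *Chchd10* on the opposite strand. *Chchd10* had 2124 and 1841 counts in control and 2073 and 2739 counts in Mps1sKO libraries. The strandedness of the counts is not given in the sources used here, so part of the *Mmp11* count is uncertain.

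*Mmp2*, the gelatinase that cuts type IV collagen, had 95.5 and 93.5 CPM in control and 86.6 and 107 CPM in Mps1sKO libraries. The control values lay between the Mps1sKO values, and the log2 fold change was 0.04 (standard error 0.116, 95% interval −0.23 to 0.31). It was −0.13 without Mps1sKO replicate 2 and 0.18 without Mps1sKO replicate 1.

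*Mmp9*, the other gelatinase, was low in every library, with 109 and 78 counts in control and 80 and 116 counts in Mps1sKO libraries. As CPM these were 4.05 and 2.70 in control and 3.45 and 4.33 in Mps1sKO, so the groups overlapped. The log2 fold change of 0.21 had a 95% interval from −0.37 to 0.80, and it was −0.05 without control replicate 2 and 0.53 without control replicate 1. Neutrophils store MMP9, and of the 8 neutrophil markers 5 were tested, all lower in Mps1sKO testes. Of these, 4 had an unadjusted p below 0.05 from edgeR, while 5.37% of all tested genes were lower at that p. The summed level of the 8 markers was small, at 3.01 and 3.19 CPM in control and 0.949 and 0.597 CPM in Mps1sKO libraries. For *S100a8* the counts were 29 and 28 in control against 4 and 6 in Mps1sKO libraries, and for *S100a9* they were 14 and 18 against 4 and 2. The defining markers *Ly6g*, *Mpo* and *Elane* had at most 4 counts in any library. *Ltf*, with 12 and 11 counts in control and 0 in both Mps1sKO libraries, was at least 3.43-fold lower against a floor of 3 counts per library. These markers lay below control where *Mmp9* did not, and their part in the level of *Mmp9* was not tested.

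Among the inhibitors, *Timp2* had 229 and 231 CPM in control and 254 and 254 CPM in Mps1sKO libraries, the tightest values of all members. The log2 fold change was 0.14 (standard error 0.083, 95% interval −0.05 to 0.33), or 10.3% higher, and edgeR gave an unadjusted p of 0.127 and an adjusted p of 0.619. It lay between 0.12 and 0.15 under all 13 alternatives.

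*Timp1*, the soluble inhibitor encoded on the X chromosome inside an intron of *Syn1*, had 8.47 and 7.94 CPM in control and 8.33 and 9.85 CPM in Mps1sKO libraries, and the groups overlapped. Its log2 fold change was 0.15 (95% interval −0.22 to 0.52), which was 0.02 without Mps1sKO replicate 2 and 0.26 without Mps1sKO replicate 1. *Timp3* had 101 and 137 CPM in control and 141 and 117 CPM in Mps1sKO libraries. Its log2 fold change was 0.12 (95% interval −0.24 to 0.48), which was −0.09 without control replicate 1, −0.02 without Mps1sKO replicate 1 and 0.36 without control replicate 2. *Timp3* shares 1733 of its 8144 exon bases with *Syn3* on the opposite strand, and *Syn3* had between 48 and 74 counts in the libraries. As the strandedness of the counts is not given, part of the *Timp3* count is uncertain too, whatever the level of *Syn3*.

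**Figure D3:**
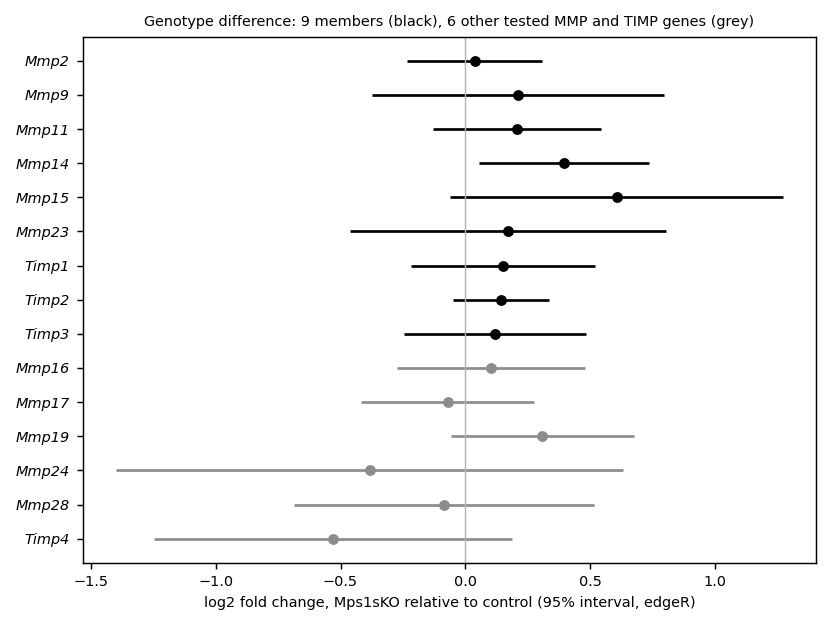
Log2 fold change (x axis) of Mps1sKO relative to control with its 95% interval from edgeR, for the 9 members in black and 6 other tested MMP and TIMP genes in grey. The interval of *Mmp14*, from 0.05 to 0.74, is the 1 that does not include 0.

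The libraries of 1 genotype differed from each other in the same way for most members. For 7 of the 9, control replicate 1 was above control replicate 2 and Mps1sKO replicate 2 was above Mps1sKO replicate 1, an order that 31.0% of all tested genes had. They were all 6 MMPs and *Timp1*. *Timp3* had the opposite order in both genotypes, and the values of *Timp2* differed by 0.011 or less on the log2 scale within each genotype. Control replicates 1 and 2 differed by 0.66 for *Mmp23*, 0.58 for *Mmp9*, 0.55 for *Mmp15*, 0.44 for *Mmp11* and 0.36 for *Mmp14* on the log2 scale. For *Timp1* and *Mmp2* they differed by only 0.09 and 0.03, less than for most genes. The median absolute difference over 20551 genes with a count in every library was 0.152 between the control libraries and 0.188 between the Mps1sKO libraries. Mps1sKO replicates 2 and 1 differed by 0.78 for *Mmp15* and 0.74 for *Mmp23*, more than the genotypes did for either gene.

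**Figure D4:**
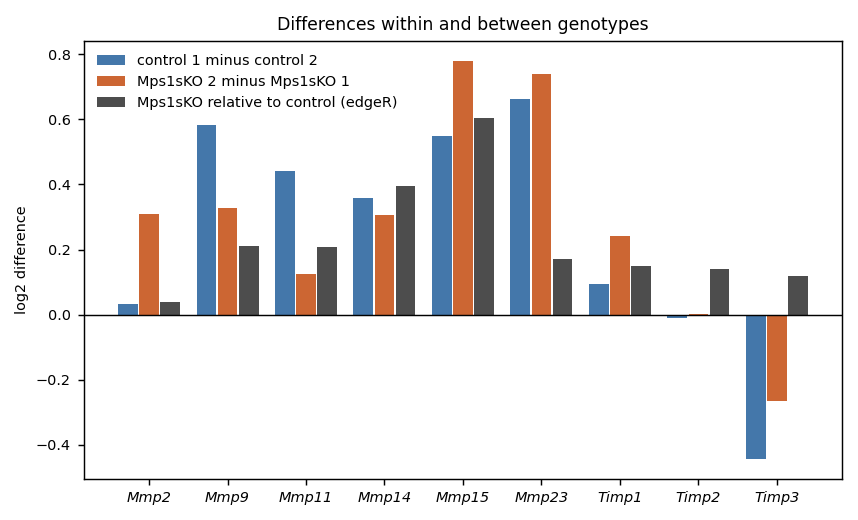
For each member, the log2 difference between control replicates 1 and 2 (blue), between Mps1sKO replicates 2 and 1 (orange) and between the genotypes (grey, edgeR). For *Mmp23* both differences within a genotype, 0.66 and 0.74, exceed the difference of 0.17 between the genotypes, while for *Timp2* the order of size is the reverse.

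Marker genes of the cell types differed between the same libraries. Each gene was centred on its mean log2 level over the 4 libraries, and the median over a list was taken. For the 12 germ cell markers, which include *Ddx4* and *Dazl*, this median was 0.14 and 0.33 in control replicates 1 and 2 and −0.12 and −0.36 in Mps1sKO replicates 1 and 2. For the 11 tested Sertoli cell markers, which include *Sox9* and *Amh*, it was −0.03 and −0.26 in control and 0.07 and 0.20 in Mps1sKO libraries. For the 9 members it was −0.02 and −0.33 in control and −0.05 and 0.18 in Mps1sKO libraries. The library with the lowest germ cell median, Mps1sKO replicate 2, thus had the highest member median, and the library with the highest germ cell median, control replicate 2, had the lowest. Control replicate 1 lay above Mps1sKO replicate 1 in both medians, so the order was not opposite over all 4 libraries.

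The summed level of the germ cell markers was 1513 and 1802 CPM in control and 1359 and 1056 CPM in Mps1sKO libraries, and that of the Sertoli cell markers was 7143 and 7286 CPM in control and 8825 and 8555 CPM in Mps1sKO libraries. *Clu*, the most abundant Sertoli cell marker, had 2900 and 3586 CPM in control and 4399 and 3319 CPM in Mps1sKO libraries, the opposite order within each genotype to the list median. Without *Clu* the sum was 4243 and 3700 CPM in control and 4426 and 5236 CPM in Mps1sKO libraries. No germ cell marker was at 0, and the Sertoli cell marker *Rhox5* had 1 count in 1 library and 0 in the others. *Sox9* and *Amh* had log2 fold changes of 0.26 and 0.67. *Amh* had 228 and 114 CPM in control and 207 and 337 CPM in Mps1sKO libraries, the same order of libraries within each genotype as the MMPs, and 9 of the 11 tested Sertoli cell markers had that order. Of the 12 germ cell markers 10 had the opposite order and 0 had that of the MMPs. The part of these markers in the levels of the members was not tested.

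**Figure D5:**
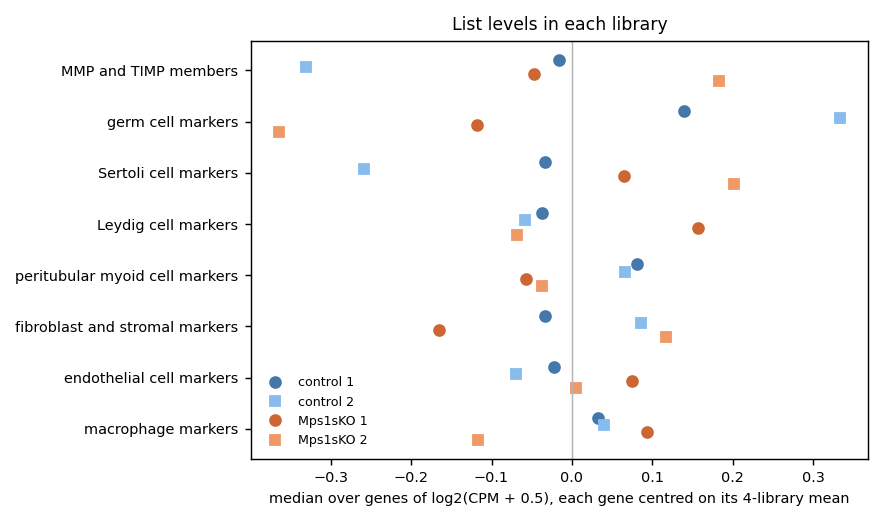
Median over each list of log2(CPM + 0.5), each gene centred on its mean over the 4 libraries, with 1 point for each library. The member median spans −0.33 in control replicate 2 to 0.18 in Mps1sKO replicate 2. Between these libraries the germ cell markers run the opposite way, from 0.33 to −0.36, and the Sertoli cell markers run from −0.26 to 0.20. Control replicate 1 lies above Mps1sKO replicate 1 for both the members and the germ cell markers.

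For 5 other somatic lists the medians were closer to 0 than for the germ and Sertoli cell markers. The median log2 fold change was −0.10 for 6 peritubular myoid markers of the contractile tubule wall, with 1 higher and 5 lower (*Acta2* −0.12, *Myh11* −0.05). For 7 fibroblast and stromal markers it was −0.03, with 3 higher and 4 lower (*Pdgfra* 0.14, *Dcn* 0.06). For 6 Leydig cell markers it was 0.18, with 4 higher and 2 lower, from −0.66 to 0.24 (*Cyp17a1* −0.17, *Cyp11a1* 0.22). For 6 endothelial markers it was 0.11, with 5 higher and 1 lower (*Pecam1* −0.07, *Cdh5* 0.16). For 6 macrophage markers it was −0.08, with 1 higher and 5 lower (*Adgre1* −0.16, *Csf1r* −0.13). None of these 5 lists had a gene with an unadjusted p below 0.05 from edgeR, against 9.3% of all tested genes. Of the 5 adipocyte markers 2 were tested. *Fabp4* had 28 and 129 counts in control and 15 and 12 counts in Mps1sKO libraries, and *Plin1* had 505 and 344 against 514 and 644. Their log2 fold changes of −2.34 and 0.59 were of opposite sign, each with an unadjusted p below 0.05 from edgeR. *Adipoq* had at most 23 counts in a library and *Lep* had 0 in all of them.

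The balance of proteases and inhibitors was described by the sum of the 6 MMPs over the sum of the 3 TIMPs, both in FPKM. This ratio was 1.48 and 1.11 in control and 1.22 and 1.52 in Mps1sKO libraries, so each genotype held 1 library with a high and 1 with a low ratio. The means were 1.30 ± 0.259 (SD, n = 2) and 1.37 ± 0.213 (SD, n = 2), and the difference of 0.0747 gave an exact two-sided permutation p of 0.667, where 2 libraries against 2 cannot give less than 0.33. The difference was −0.108 without control replicate 2 and −0.0761 without Mps1sKO replicate 2.

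The summed TIMP level was 80.1 and 84.6 FPKM in control and 91.5 and 90.5 FPKM in Mps1sKO libraries, and the groups did not overlap (exact permutation p = 0.33, the smallest possible). The summed MMP level was 119 and 94.2 FPKM in control and 112 and 138 FPKM in Mps1sKO libraries, and it overlapped. *Mmp14* made up 29.6% and 29.1% of the summed MMP level in control and 33.0% and 33.2% in Mps1sKO libraries. That share varied little within a genotype although the sum itself did, and its groups did not overlap (exact permutation p = 0.33). *Mmp14* over *Timp2*, the pair that activates the MMP2 precursor, was 0.602 and 0.466 in control and 0.568 and 0.703 in Mps1sKO libraries as a ratio of FPKM. The share and this ratio were chosen after the values were seen.

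Of the 18 other MMP and TIMP genes, 6 were tested and 12 were removed by the filter on low counts with at most 8 counts in any library. Of the removed genes, *Mmp3*, *Mmp1a*, *Mmp1b* and *Mmp20* had 0 counts in all libraries, which allows up to 0.104 to 0.129 CPM per library. Of the tested genes, 2 were higher and 4 lower, and edgeR gave 0 of them an unadjusted p below 0.05 (median log2 fold change −0.08). *Mmp19*, a secreted MMP, had 5.94 and 5.93 CPM in control and 7.12 and 7.58 CPM in Mps1sKO libraries, a log2 fold change of 0.31 (95% interval −0.06 to 0.67) with groups that did not overlap. *Mmp16*, a membrane-bound MMP, had a log2 fold change of 0.10, also with both Mps1sKO values above both control values. *Mmp17*, *Mmp24* and *Mmp28* had −0.07, −0.38 and −0.08. *Timp4* had low counts, 31 and 32 in control and 19 and 20 in Mps1sKO libraries, and its log2 fold change was −0.53 (95% interval −1.25 to 0.19). Its groups did not overlap either, in the other direction. Groups thus did not overlap for 2 higher and 1 lower of these 6 genes. Among all tested genes, 41.4% had groups that did not overlap (20.3% higher and 21.1% lower), so such separation was common.

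TIMP3 also inhibits some proteases of the related ADAM and ADAMTS families, and 16 genes of these families were tested. Of them 15 lay above and 1 below control (median log2 fold change 0.09), and 2 had an unadjusted p below 0.05, both higher, which is 12.5% against 9.3% of all tested genes. *Adamts5*, an aggrecan- and versican-cutting protease, had 221 and 211 CPM in control and 258 and 258 CPM in Mps1sKO libraries, a log2 fold change of 0.26 (edgeR adjusted p = 0.497). *Adamts9* had 103 and 104 CPM in control and 142 and 113 CPM in Mps1sKO libraries, a log2 fold change of 0.30. *Adam17*, which sheds TNF from the cell surface, had 0.07.

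Of the 16 activators, inhibitors and receptors of MMPs, 15 were tested, 10 of them above and 5 below control (median log2 fold change 0.08). The 1 gene (6.67%, against 9.3% of all tested genes) with an unadjusted p below 0.05 was *Pcsk6*, a proprotein convertase related to furin. It had 37.9 and 31.2 CPM in control and 45.0 and 46.0 CPM in Mps1sKO libraries, a log2 fold change of 0.40 (edgeR adjusted p = 0.494). *Furin* had 136 and 105 CPM in control and 127 and 159 CPM in Mps1sKO libraries, with the same order of libraries within each genotype as *Mmp14*. *Reck*, which encodes a membrane-anchored inhibitor of MMPs, had a log2 fold change of 0.01 (95% interval −0.21 to 0.24), and *Bsg*, whose protein induces MMPs in neighbouring cells, had −0.04.

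The substrates were represented by 20 genes of the basement membrane, all tested, of which 15 lay above and 5 below control (median log2 fold change 0.11). *Lama1*, a laminin chain, was the 1 gene (5.0%, against 9.3% of all tested genes) with an unadjusted p below 0.05. It had 143 and 138 CPM in control and 178 and 159 CPM in Mps1sKO libraries, a log2 fold change of 0.27 (edgeR adjusted p = 0.506). *Col4a1*, the main type IV collagen chain, had 453 and 408 CPM in control and 564 and 456 CPM in Mps1sKO libraries. Within Mps1sKO testes the higher library of *Lama1* and *Col4a1* was replicate 1, while for the 6 MMPs it was replicate 2. The order of libraries that 7 of the 9 members had was found in 1 of the 20 substrate genes.

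The 250 bases before the RefSeq start site of *Mmp14* (GRCm38.p6, chr14:54431348-54431597, plus strand) are shown because it was the member with the lowest p. Capitals mark matches to the motifs searched, which were the GC box GGGCGG, the CCAAT box, the ETS motif AGGAAG, the TATA box TATAAA and the AP-1 motif TGAGTCA, each on both strands, and 1 CCAAT box there overlaps a GC box.
*Mmp14*: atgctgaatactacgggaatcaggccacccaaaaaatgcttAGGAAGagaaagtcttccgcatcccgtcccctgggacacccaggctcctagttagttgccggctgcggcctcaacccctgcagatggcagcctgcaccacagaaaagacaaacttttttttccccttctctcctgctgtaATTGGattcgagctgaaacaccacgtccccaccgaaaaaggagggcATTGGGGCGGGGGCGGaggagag

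Windows of 300 bases around the start site were found in RefSeq for 7 members, all except *Mmp2* and *Mmp9*. A GC box was present in 6 of the 7, in *Mmp11*, *Mmp14*, *Mmp15*, *Timp1*, *Timp2* and *Timp3*, against 35.9% of 27025 genes with such a window. The 7 windows held 55.0% to 68.67% G and C bases, against a median of 52.67% over all genes. The part of this base content in the GC box matches was not tested. *Mmp23* had none of the motifs. A CCAAT box was present in *Mmp14*, *Timp1* and *Timp2*, against 37.9% of genes, and an ETS motif in *Mmp14*, *Timp1* and *Timp3*, against 35.1%. The AP-1 letters and the TATA box letters were in none of the 7 windows, against 5.17% and 14.2% of genes. These are matches of letters and were not tested for binding.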

How the data were processed

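RNA was sequenced from whole testes at P10, with 2 libraries in each genotype. Per the labels, the authors made NEBNext Ultra libraries and sequenced them on an Illumina NovaSeq platform, and the submitters' processing notes name HISAT2 2.0.5, featureCounts, DESeq2 1.16.1 and the build mm10. The authors deposited raw counts and FPKM values for 55820 loci; the strandedness is not given in the sources used here. All 9 members matched GENCODE M21 in identifier and coordinates.

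The count table was fitted by edgeR 4.0.16 under R 4.3.3 (filterByExpr, which kept 20561 loci, TMM, estimateDisp and the two-sided quasi-likelihood F test), with p adjusted over all tested loci by the Benjamini-Hochberg method. The common biological coefficient of variation was 0.106. Intervals are 95% and cover the spread the fit estimates. A count of 0 allows 3 counts per library, and this covers counting error only. CPM uses the TMM scaling, and FPKM served only to compare genes and to sum them. Alternatives were DESeq2 1.42.0, other scalings and filters, limma-voom 3.58.1, a robust dispersion, a replicate block and each library left out, where the lone library is assumed to vary like the others. A crossed replicate block, which paired libraries of unlike replicate number, was added after the data were seen.

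Named genes were all members, the tested genes among the other MMPs and TIMPs, pathway genes with an unadjusted p below 0.05 and groups apart, *Reck*, *Furin*, *Bsg*, *Adam17*, *Col4a1*, *Ttk* and the first 2 of each marker list. *Rhox5*, *Ltf*, *Mmp3*, *Mmp1a*, *Mmp1b*, *Mmp20*, *Ly6g*, *Mpo*, *Elane*, *Plin1*, *Lep*, *Clu*, *Chchd10*, *Syn1* and *Syn3* were added after their values were seen. Members and lists were chosen with earlier results of these data known. The fit was tested on simulated data with known changes. The enrichment tests and other assays of the study were not analysed here.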

Additional observations from a re-analysis of the deposited data

How the results depend on the processing

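At an adjusted p below 0.05, 0 members were called by edgeR and by 11 of the 13 alternatives; without the filter on low counts and with a crossed replicate block the count was 1, *Mmp14* in both. At an unadjusted p below 0.05 the count of 1 became 2 with DESeq2 and 2 without the filter (3.2% and 8.52% of 35262 loci, low counts included). It ranged from 0 to 4 with each library left out: 4 (*Mmp11*, *Mmp14*, *Mmp15* and *Mmp23*) without control replicate 1 (9.99% of all genes), 1 (*Timp3*) without control replicate 2 (3.77%), 3 without Mps1sKO replicate 1 (12.8%) and 0 without Mps1sKO replicate 2 (9.36%). Members whose groups did not overlap numbered 2, and from 3 to 8 with a library left out, where 1 library is set against 2 and 63.5% to 75.9% of all genes did not overlap. Their median log2 fold change of 0.17 ranged from 0.10 to 0.44 with a library left out. The difference in the MMP to TIMP ratio ranged from −0.108 to 0.258.

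All 9 log2 fold changes stayed above 0 under the other scalings, filters and tests; reversals came only with a library left out. The ranges over those were −0.13 to 0.18 for *Mmp2*, −0.054 to 0.53 for *Mmp9*, −0.25 to 0.54 for *Mmp23* and −0.088 to 0.36 for *Timp3*. *Ttk* (−1.26 on the log2 scale, edgeR adjusted p = 0.0461) no longer passed 0.05 with DESeq2 size factors (−1.26), a minimum of 10 counts in every library (−1.27), limma-voom (−1.26) and the replicate block (−1.26). The adjusted p of *Ttk* was 7.33e-09 with the DESeq2 test and 1.11e-14 from edgeR without the filter on low counts. Its log2 fold change lay between −1.37 and −1.15 with a library left out. The causes were not tested.

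With the replicate number as a block, edgeR called 0 members at an unadjusted p below 0.05 (5.05% of all genes) and 2 genes of all, in place of 6, at an adjusted p below 0.05. The numbers are not known to pair the samples, and the deviations of same-numbered libraries had a correlation of −0.24 over 20561 genes. A crossed replicate block, chosen after seeing the data, called 4 members at an unadjusted p below 0.05 (18.4% of all genes), 1 at an adjusted p below 0.05 and 550 genes of all. The number of all tested genes at an adjusted p below 0.05, 6 in the edgeR fit, was 37 with DESeq2, 390 without the filter, 3 with the higher count minimum, 3 with limma-voom and 17 to 199 with a library left out. The standard errors were largest for *Mmp15* (0.287), *Mmp23* (0.271) and *Mmp9* (0.252).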
